A study of Mus musculus with 6 samples.

Results

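The genes described here are the ligands and receptors of the axon guidance families in mouse embryonic fibroblasts kept as primary cultures (pMEFs, cells of the connective tissue) with and without histone acetyltransferase 1 (HAT1). They were chosen by symbol alone, as every semaphorin of classes 3 to 7, plexin, neuropilin, Eph receptor, ephrin, Slit, Robo, netrin, Unc5 receptor and Dcc in the count table. The rule took 68 of 17512 genes, in 13 families. RNA was sequenced from 3 HAT1 WT lines (36, 47 and 78) and 3 HAT1 KO lines (33, 41 and 72), all with the strain background C57bl6, with no treatment, grown in DMEM medium with fetal bovine serum. HAT1 acetylates newly made histone H4 before its assembly into chromatin, and the genotypes were compared to see how its absence affects transcription. Per the study's methods, pMEFs were made from mid-gestation embryos after removal of the internal organs, by dissociation and plating with no sorting step, so a line can hold other cells of the embryo. Each line counted as 1 replicate. The embryonic age of each line was not given in the sources used here.

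Guidance ligands steer growing axons and migrating cells by attracting or repelling them, and each family has its own receptors. Class 3 semaphorins are secreted and act through a neuropilin that binds the ligand and a plexin that signals, while most other semaphorins are membrane proteins that bind plexins directly. Ephrins are held on the cell surface and bind Eph receptor kinases on the neighbouring cell, Slits bind Robo receptors, and netrins bind Dcc and the Unc5 receptors. The same families are used outside the nervous system, in vessels, in immune cells and in the mesenchyme that gives rise to fibroblasts.

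Library totals lay between 67720628 and 98786746 counts, and the 68 genes took between 0.569% and 0.711% of them. Hat1 itself was at 17.4, 23.0 and 20.1 counts scaled to library size (CPM) in WT lines 36, 47 and 78 and at 10.2, 10.0 and 10.3 CPM in KO lines 33, 41 and 72, with a log2 fold change of -0.99 ± 0.12 (SE, adjusted p = 0.0376, edgeR quasi-likelihood test). KO line 72 stood apart from the rest and was the highest or the lowest of the 6 lines in 51.5% of all tested genes. Genotype was not balanced against Y-linked expression, since 4 Y-linked genes summed to 13788 and 12841 counts in WT lines 36 and 47, to 231 in WT line 78 and to 8 or fewer in every KO line. The X-linked Xist went the opposite way, at 1.25 and 14.6 CPM in WT lines 36 and 47. It was at 298.3 CPM in WT line 78 and at 145.6 to 191.1 CPM in the KO lines. Genotype and this sex-linked difference cannot be told apart, also for the guidance genes on the X chromosome, Efnb1, Plxna3 and Plxnb3. A fit with a term for lines 36 and 47 (the Y-linked term) therefore sets the KO lines against WT line 78 alone, so a call it keeps or gains is not given as support. Lane 6 held WT line 47 with KO lines 33 and 72, lane 7 had WT line 78 and KO line 41, and WT line 36 was the sole library of lane 8. A fit with lane in the model therefore compares the genotypes within lanes 6 and 7 alone, without WT line 36. The 10 fibroblast markers, collagens, Pdgfra and Vim among them, summed to between 57730 and 89800 CPM per line, which fitted the label of the cells.

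Most of the guidance genes were detected, and many of them were at high levels in these cultures. Of the 68 genes, 63 passed the filter on low counts of the test across all genes. The 5 that did not were Epha8, Epha10, Ephb1, Robo3 and Ntn5, with no more than 16 counts in any line. Robo4, which endothelial cells use, was also covered by the rule but had no row in the table. Levels of different genes were compared as CPM per kilobase of exon, averaged over the 6 lines. The exon length merged all annotated exons of a gene, whichever of them the cells used, so the order of genes depends on it. This length was 6067 bases for Slit3, 25433 for Slit2 and 16511 for Robo1. Slit3, a secreted repellent, led with 141.5 CPM per kb and ranged from 82.1 in KO line 72 to 214.7 in WT line 78. It was followed by Plxnb2, a receptor of class 4 semaphorins, at 97.3 CPM per kb and by Unc5b, a netrin receptor of vessels and other tissues, at 89.9 CPM per kb. The ranges of these first 3 genes over the lines overlapped, so their order did not exceed the spread between lines. Plxna1, a signalling partner of neuropilins, came next at 66.5 CPM per kb, and its highest line, at 71.2, lay below the lowest line of each of the first 3. Nrp1 and Nrp2, the neuropilins, had 41.3 and 35.2 CPM per kb with overlapping ranges.

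Within families the levels differed widely. The leading members were Sema3f at 14.2 CPM per kb among class 3 semaphorins, Sema4d at 10.1 in class 4 and Sema5a at 5.28 in classes 5 to 7. Sema5a led on the mean alone, since Sema7a was above it in WT line 36 and Sema6a in KO line 72. Epha4 led the EphA receptors at 11.2 CPM per kb, with ranges that overlapped those of Epha2 and Epha3, and Ephb4 the EphB receptors at 28.7. Among the ephrins, Efna5 led the A type at 11.8 CPM per kb and Efnb1 the B type at 22.2. Robo1 led the Robo receptors at 2.57 CPM per kb, and both Slit3 and Slit2 (22.4) had more RNA per kb in every line than Robo1 had in any. Ntn4, a netrin of basement membranes, was at 9.51 CPM per kb and Ntn1, the founding netrin, at 8.67, again with overlapping ranges. Dcc, the netrin receptor of attracted axons, was at 0.0179 CPM per kb, far below Unc5b.

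**Figure D1:**
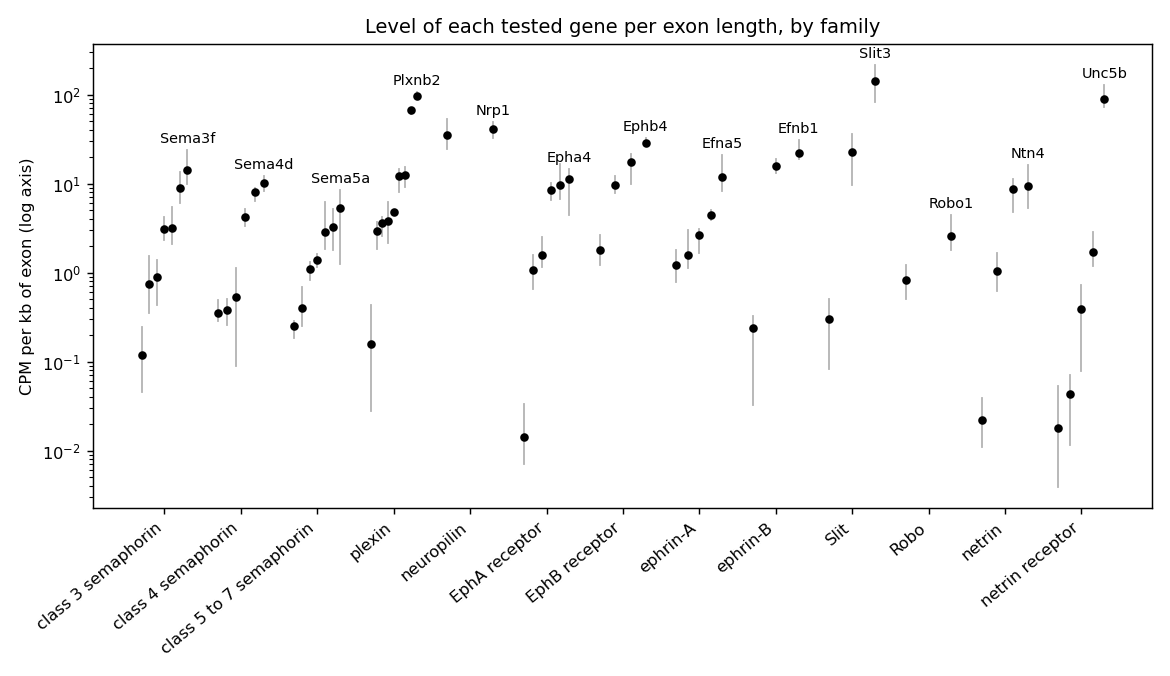
Level of each of the 63 tested guidance genes in CPM per kilobase of exon (log axis), grouped by family; points are means over the 6 lines, bars run from the lowest to the highest line, and the leading gene of each family is named. Slit3 at 141.5, Plxnb2 at 97.3 and Unc5b at 89.9 CPM per kb are at the top, and Epha5 and Dcc, at 0.0141 and 0.0179, near the bottom.

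The comparison of HAT1 KO with HAT1 WT asked whether these genes depend on HAT1. In edgeR, no guidance gene passed an adjusted p of 0.05 (0 of 63, Benjamini-Hochberg over 14773 genes), and the smallest adjusted p was 0.119, for Sema3a. Over all tested genes, 78 passed (0.528%), each of them lower in KO. An unadjusted p under 0.05 was reached by 8 of 63 (12.7%), against 14.6% of all tested genes. Of these, 6 were lower in KO and 2 higher, where 8.77% of all tested genes were lower and 5.88% higher. By the study's thresholds, 1.5-fold together with an unadjusted p under 0.05, Sema7a and Slit1 were lower and Sema3a and Epha2 higher. That is 3.17% of the 63 in each direction, beside 4.62% of all genes for lower and 1.5% for higher. In 8 genes the lines of the genotypes did not overlap (12.7%, against 22.0% of all genes, 12.4% lower and 9.59% higher), with Sema4d, Sema6d, Sema7a, Nrp1 and Ephb6 lower in every KO line and Sema3a, Sema3e and Epha2 higher in every KO line. Of the 63 log2 fold changes 34 were below 0 and 29 above (54.0% below, against 48.5% of all tested genes), with a median of -0.06, beside 0.01 for all tested genes. In this fit the shares of called genes in these families were near or below the background, except for the 1.5-fold higher call, which rests on 2 genes. The DESeq2 Wald test gave adjusted p-values under 0.05 for 5 of the 63, Sema3a, Sema7a, Nrp1, Sema6d and Sema4d, where it called 871 genes in all. At an unadjusted p under 0.05 the share was above the background in DESeq2 (20.6% against 16.5%), in voom (20.6% against 17.7%), without WT line 78 (15.6% against 10.1%), without KO line 33 (15.9% against 12.4%) and without KO line 41 (23.8% against 13.7%).

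**Figure D2:**
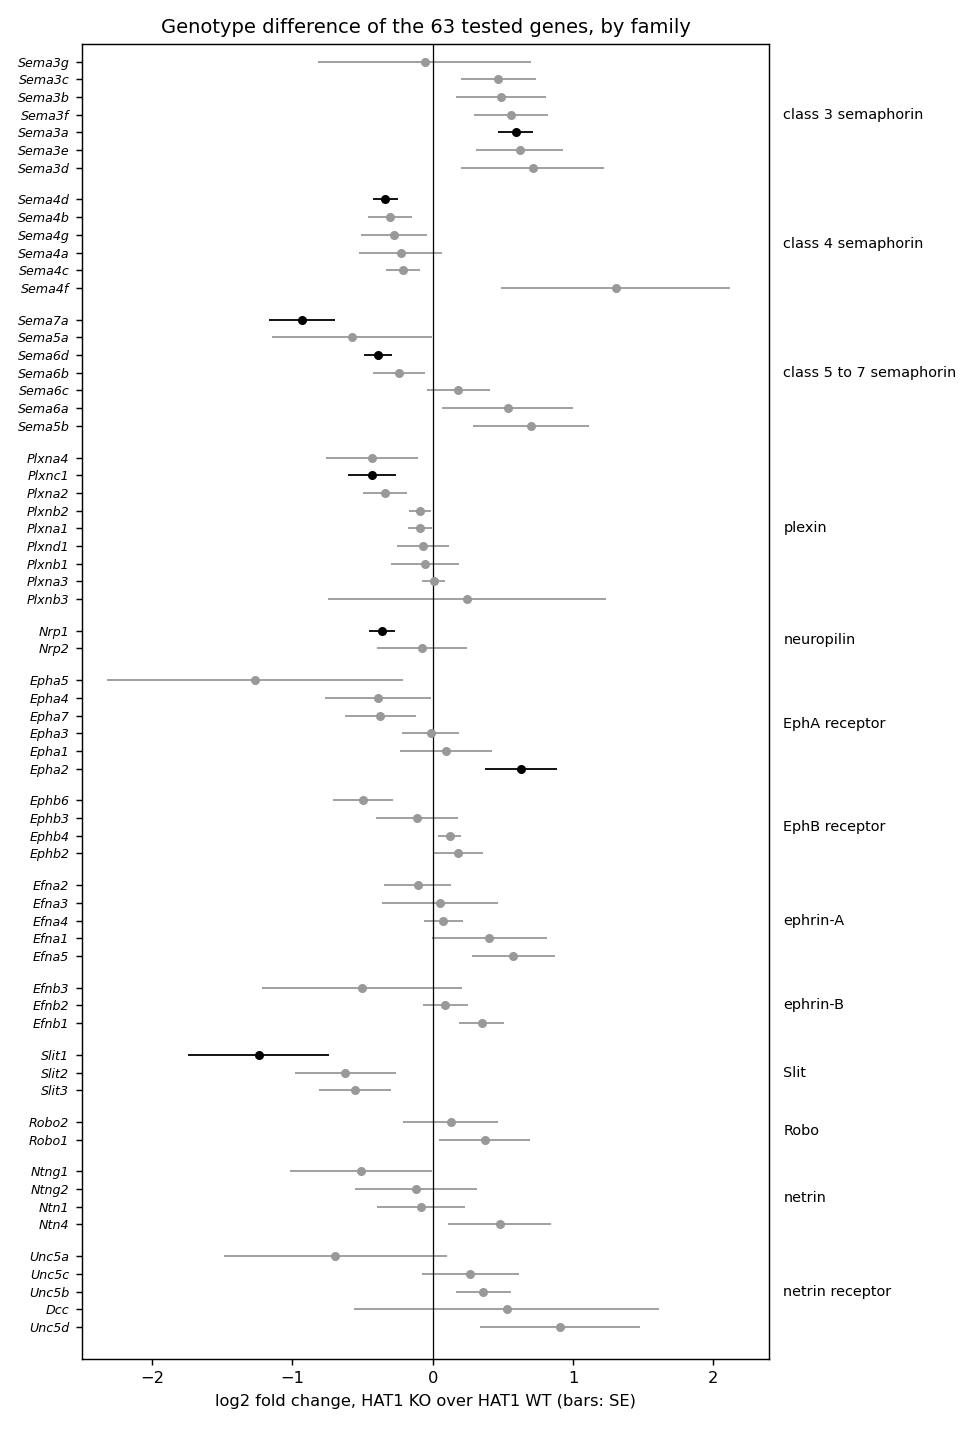
Log2 fold change of HAT1 KO over HAT1 WT for each of the 63 tested guidance genes (horizontal axis; bars are standard errors), grouped by family, with the 8 genes of unadjusted p under 0.05 in black. Class 3 semaphorins lie mostly to the right (median 0.56), Slits to the left (median -0.62), and the values run from -1.27 for Epha5 to 1.31 for Sema4f, both with wide errors.

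The class 3 semaphorins, the secreted ligands of neuropilin and plexin complexes, were higher in KO in 6 of 7 cases, with a median log2 fold change of 0.56. One of them passed the unadjusted threshold. Sema3a, a repellent of sensory and cortical axons, lies on chromosome 5 (chr5:13125414-13602565, plus strand, GRCm38). It was at 32.3, 32.97 and 37.9 CPM in the WT lines and at 44.8, 59.1 and 51.5 CPM in the KO lines (here and below in the order 36, 47 and 78 for WT and 33, 41 and 72 for KO). All KO lines lay above all WT lines, and no single line set the difference. The log2 fold change was 0.59 ± 0.12 (SE, unadjusted p = 0.00249, adjusted p = 0.119), or 1.51-fold. The unadjusted p stayed under 0.05 without any 1 line and with lane in the model (0.59, unadjusted p = 0.00499). Within lanes the log2 ratio was 0.55 in lane 6 and 0.64 in lane 7.

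Sema3f, a repellent that acts through Nrp2, was at 51.1, 55.1 and 73.2 CPM in the WT lines and at 65.9, 75.0 and 122.9 CPM in the KO lines. KO line 72 was far above the other KO lines, of which line 33 lay within the WT range and line 41 just above it. The log2 fold change of 0.56 ± 0.26 (SE) did not pass (unadjusted p = 0.0764). Sema3c, which guides neural crest cells of the outflow tract, was highest in KO line 72 too, at 95.9 CPM against 43.0 to 73.1 in WT. Sema3e, a ligand that binds Plxnd1 directly, was at 7.64, 8.12 and 3.99 CPM in the WT lines and at 8.40, 9.04 and 12.9 CPM in the KO lines. Its lines did not overlap, although KO line 33 exceeded WT line 47 only slightly, and its unadjusted p was 0.0891. The 7 genes together had 23.1, 23.1 and 30.4 CPM per kb in WT, against 29.8, 31.4 and 49.4 CPM per kb in KO. The genotypes overlapped in this sum, and without KO line 72 the family's median was 0.25, again with 6 of 7 above 0.

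The membrane-bound semaphorins had mostly lower values in KO. In class 4, whose members act through B plexins and, in immune cells, other receptors, 5 of 6 were lower, with a median log2 fold change of -0.25. Sema4d, known as CD100 on T cells and made by several other cells, lies at chr13:51685529-51793747 on the minus strand. It was at 79.6, 88.2 and 92.8 CPM in the WT lines and at 63.1, 68.9 and 74.2 CPM in the KO lines. Every KO line was below every WT line, with a log2 fold change of -0.34 ± 0.09 (SE, unadjusted p = 0.00867, adjusted p = 0.193). This unadjusted call held in each fit that left out 1 line and with lane in the model (unadjusted p = 0.0214). Sema4a, which T cells and dendritic cells use, was at 1.91 to 2.71 CPM in the WT lines and at 2.58, 1.41 and 1.66 CPM in the KO lines, with overlap (unadjusted p = 0.469). The single member with a positive value, Sema4f, spread more than any other of its class. It was at 1.27, 1.76 and 1.86 CPM in the WT lines but at 5.70, 0.473 and 5.92 CPM in the KO lines, so 2 KO lines lay above and 1 below all WT lines (log2 fold change 1.31 ± 0.82, SE, unadjusted p = 0.159). Without KO line 41 its log2 fold change was 1.83. That line was left out because its value went the other way, so the p of this fit is not given as support.

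Of the class 5 to 7 semaphorins, 4 of 7 were lower, and 2 of these passed the unadjusted threshold. Sema7a, a GPI-anchored semaphorin that binds Plxnc1 and integrins and is known from immune cells and from axon growth, lies at chr9:57940112-57962865 on the plus strand. It was at 17.0, 15.2 and 10.1 CPM in the WT lines and at 8.36, 7.88 and 5.87 CPM in the KO lines. The KO lines were all lower, WT line 78 came closest to them, and the means were 14.1 ± 3.59 CPM in WT and 7.37 ± 1.32 CPM in KO (SD, n = 3 each). The log2 fold change was -0.93 ± 0.23 (SE, unadjusted p = 0.00651, adjusted p = 0.172). It was -0.45 (unadjusted p = 0.104) with the Y-linked term, where the WT side of the estimate rests on line 78 alone. Sema6d, a transmembrane ligand of Plxna1 in heart development, lies at chr2:124089969-124667770 on the plus strand and was at 17.3, 14.8 and 17.1 CPM in the WT lines and 13.3, 12.2 and 12.1 CPM in the KO lines. The groups did not overlap, and the differences within each were small, with a log2 fold change of -0.39 ± 0.10 (SE, unadjusted p = 0.00708, adjusted p = 0.178). With lane in the model its unadjusted p was 0.0680.

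In Sema5a and Sema6a, KO line 72 set the sign or size of the difference. Sema5a, a transmembrane semaphorin with thrombospondin repeats, was at 84.3, 113.1 and 157.2 CPM in the WT lines and at 114.3, 100.1 and 23.2 CPM in the KO lines. KO lines 33 and 41 lay inside the WT range and KO line 72 far below it, so the log2 fold change of -0.58 became -0.13 without line 72. Sema6a, a transmembrane ligand of Plxna2 and Plxna4, was instead highest in that line. It was at 18.1, 22.0 and 21.7 CPM in the WT lines and 18.8, 16.3 and 54.3 CPM in the KO lines.

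The plexins, the signalling receptors of semaphorins, had log2 fold changes from -0.43 to 0.24 with a median of -0.09, and 7 of 9 were below 0. Plxnb2 was at 822.7, 771.8 and 730.0 CPM in the WT lines and at 734.0, 698.8 and 748.0 CPM in the KO lines, which overlapped (unadjusted p = 0.282). Plxnd1, a receptor of endothelial cells and of the mesenchyme, was at 86.4, 92.1 and 99.8 CPM in the WT lines and at 111.8, 66.4 and 87.2 CPM in the KO lines, on both sides of the WT range. Plxnc1, the receptor of Sema7a, lies at chr10:94790866-94944835 on the minus strand and was the 1 plexin with an unadjusted p under 0.05. It was at 122.1, 117.8 and 106.3 CPM in the WT lines and at 81.7, 67.0 and 107.5 CPM in the KO lines. KO lines 33 and 41 were below every WT line, while KO line 72 lay within the WT range. The log2 fold change was -0.43 ± 0.17 (SE, unadjusted p = 0.0443, adjusted p = 0.329). The unadjusted p was over 0.05 in 5 of the 6 fits that left out 1 line, and without KO line 72 the log2 fold change was -0.62 (unadjusted p = 0.00156).

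The neuropilins are shared by class 3 semaphorins and vascular endothelial growth factors, and both were among the most abundant receptors. Nrp1, the partner of Sema3a, lies at chr8:128358604-128503363 on the plus strand and was at 482.6, 430.0 and 452.3 CPM in the WT lines and at 317.8, 375.7 and 367.2 CPM in the KO lines. All KO lines were lower, and the gap between the groups was wider than the spread within WT but narrower than the spread within KO. The log2 fold change was -0.36 ± 0.09 (SE, unadjusted p = 0.00690, adjusted p = 0.176), that is 0.777 of the WT level. The unadjusted call held without any 1 line but not with lane in the model (unadjusted p = 0.0561). Within lanes the log2 ratio was -0.33 in lane 6 and -0.27 in lane 7.

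Nrp2, the partner of Sema3f, was far less even. It was at 426.8, 418.6 and 437.6 CPM in the WT lines and at 291.9, 286.6 and 637.3 CPM in the KO lines. KO lines 33 and 41 were well below the narrow WT range and KO line 72 well above it, which gave a log2 fold change of -0.08 ± 0.32 (SE, unadjusted p = 0.816). Without KO line 72 it was -0.55 ± 0.06 (SE, adjusted p = 0.0487). The line left out there is the one that went the other way, so this p is not given as support. No other guidance gene had an adjusted p under 0.05 in any fit of edgeR that left out 1 line. Without KO line 33, and also without KO line 41, the log2 fold change of Nrp2 was above 0. The ratio of Nrp1 to Nrp2, each per kilobase, was 1.37, 1.24 and 1.25 in the WT lines, 1.32 and 1.59 in KO lines 33 and 41 and 0.697 in KO line 72. Nrp2 was thus the more abundant neuropilin in that line alone. Sema3a and Nrp1, a ligand and its receptor, had differences of opposite sign, and their relation was not tested.

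**Figure D3:**
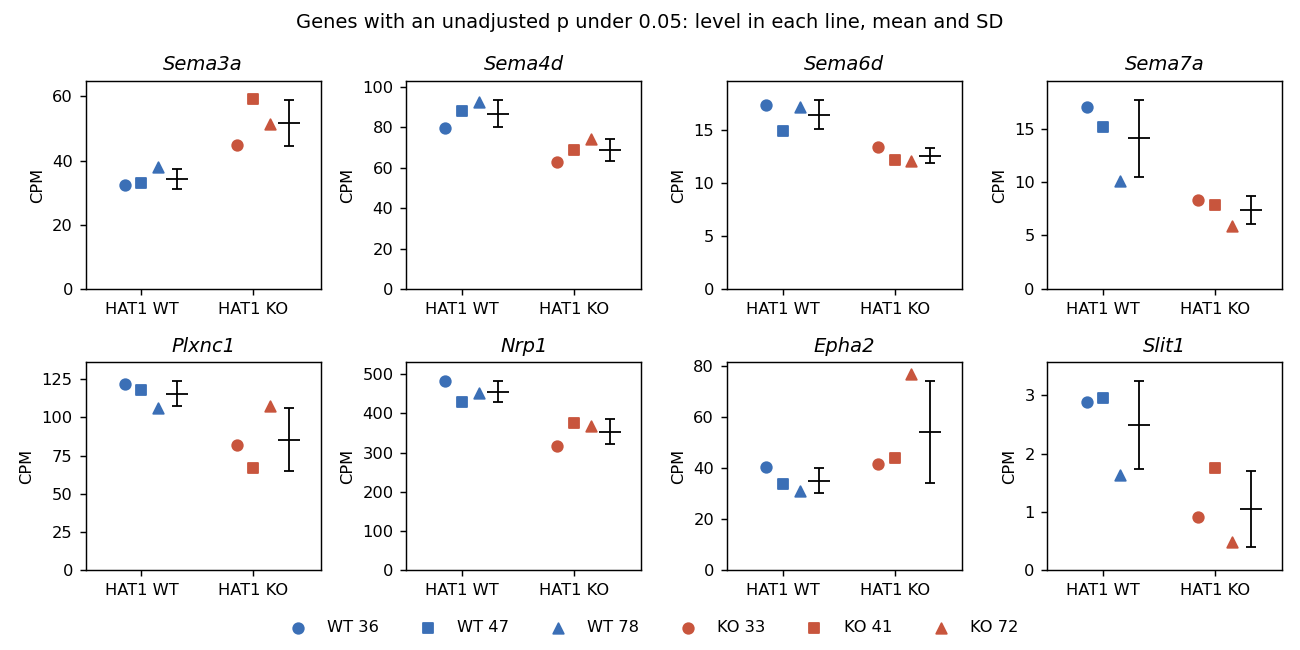
CPM in each line (blue WT, red KO; one symbol per line) for the 8 guidance genes with an unadjusted p under 0.05, with the mean and SD of each genotype (n = 3) in black and axes that start at 0. The genotypes separate in Sema3a, Sema4d, Sema6d, Sema7a, Nrp1 and Epha2, while KO line 72 of Plxnc1 (107.5 CPM) and KO line 41 of Slit1 (1.76 CPM) lie within the WT range.

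The promoters of the genes with an unadjusted p under 0.05 are shown because these are the members on which the comparison turns. Among those 8 genes, the 5 with exactly 1 promoter window in RefSeq (GRCm38.p6) are printed; Sema4d and Sema6d had several, and Slit1 is named only. Each window holds the 250 bases before the start site given by RefSeq, 5′ to 3′ on the strand of the gene. Capitals mark, on either strand, the GC box (GGGCGG, bound by Sp1 and related factors) and the PU box (GAGGAA, the core of sites for Ets factors such as PU.1). The windows are chr5:13396534-13396783 (plus strand) for Sema3a, chr9:57939862-57940111 (plus) for Sema7a, chr10:94944846-94945095 (minus) for Plxnc1, chr8:128358823-128359072 (plus) for Nrp1 and chr4:141300971-141301220 (plus) for Epha2. For Sema3a and Nrp1 this start lies inside the GENCODE bounds of the gene given above, so the window is not upstream of the whole gene. The Sema3a window lies far from the GENCODE start of its gene (13125414), and the Nrp1 window close to that of its own (128358604).
Sema3a: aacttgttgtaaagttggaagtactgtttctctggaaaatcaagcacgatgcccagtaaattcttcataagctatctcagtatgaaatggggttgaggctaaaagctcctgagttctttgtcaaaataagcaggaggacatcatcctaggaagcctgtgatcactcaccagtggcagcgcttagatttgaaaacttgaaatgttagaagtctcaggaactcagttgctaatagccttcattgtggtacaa
Sema7a: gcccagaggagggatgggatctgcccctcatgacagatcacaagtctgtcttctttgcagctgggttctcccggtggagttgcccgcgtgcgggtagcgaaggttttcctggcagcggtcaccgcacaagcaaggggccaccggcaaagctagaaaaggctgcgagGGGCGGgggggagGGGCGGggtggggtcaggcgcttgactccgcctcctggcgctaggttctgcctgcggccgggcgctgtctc
Plxnc1: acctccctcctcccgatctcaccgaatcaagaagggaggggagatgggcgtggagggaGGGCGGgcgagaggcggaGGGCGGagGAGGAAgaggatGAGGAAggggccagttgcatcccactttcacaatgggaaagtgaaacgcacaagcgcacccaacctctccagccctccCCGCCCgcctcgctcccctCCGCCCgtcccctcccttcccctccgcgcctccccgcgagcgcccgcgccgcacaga
Nrp1: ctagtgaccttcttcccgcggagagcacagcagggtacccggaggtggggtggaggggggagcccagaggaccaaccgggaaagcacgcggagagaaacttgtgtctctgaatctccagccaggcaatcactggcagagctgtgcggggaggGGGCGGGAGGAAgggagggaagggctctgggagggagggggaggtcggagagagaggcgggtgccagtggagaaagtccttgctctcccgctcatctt
Epha2: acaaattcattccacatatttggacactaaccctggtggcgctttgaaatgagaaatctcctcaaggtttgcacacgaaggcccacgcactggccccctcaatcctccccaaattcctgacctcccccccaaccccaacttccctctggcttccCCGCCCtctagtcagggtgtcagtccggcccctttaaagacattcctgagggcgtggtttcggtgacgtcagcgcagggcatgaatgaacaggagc

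The Sema3a window had neither motif and a GC content of 40.8%. The other windows held 1 or more GC boxes and 55.6% to 68.8% GC, with 4 GC boxes and 2 PU boxes in Plxnc1, 2 GC boxes in Sema7a, 1 GC box in Epha2 and 1 GC box directly followed by 1 PU box in Nrp1. None of the matches overlapped another, and a match is a description of the letters, not a bound site. Of the 68 genes, 58 had a RefSeq entry, with 74 windows. A GC box was found in 70.3% of these windows against 32.7% of all 32851 windows, a PU box in 28.4% against 23.3%, and a TATA box (TATAAA) in 2.7% against 12.4%. A CCAAT box (CCAAT) was found in 25.7% against 33.8% and an AP-1 site (TGANTCA) in 4.05% against 6.75%, each on both strands. The median GC content was 64.4% against 52.4%. These windows were thus richer in GC and poorer in TATA boxes than all RefSeq windows together. The latter were not matched to the guidance genes by expression or gene type, and a gene with several windows counted once for each. Whether this is particular to guidance genes was not tested.

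Among the Eph receptors and ephrins, 1 gene had an unadjusted p under 0.05. Epha2, a receptor of ephrin-A ligands in epithelial and mesenchymal cells, lies at chr4:141301240-141329384 on the plus strand. It was at 40.5, 33.7 and 31.0 CPM in the WT lines and at 41.6, 43.9 and 77.0 CPM in the KO lines. The lowest KO line was just above the highest WT line, and KO line 72 was far above all others. The log2 fold change was 0.63 ± 0.26 (SE, unadjusted p = 0.0482, adjusted p = 0.336), and 0.30 without KO line 72 (unadjusted p = 0.0488). The unadjusted p was over 0.05 in each fit that left out a WT line, with lane in the model (unadjusted p = 0.0956) and with the Y-linked term (unadjusted p = 0.100).

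Epha4, a receptor of both ephrin types and the most abundant of its family, was at 99.8, 90.4 and 117.5 CPM in the WT lines and at 92.0, 106.3 and 36.1 CPM in the KO lines. KO line 72 alone fell outside the WT range. Ephb4, the receptor of Efnb2 in veins, was at 129.6, 125.6 and 127.0 CPM in the WT lines and at 140.7, 150.3 and 124.5 CPM in the KO lines, with a log2 fold change of 0.12 ± 0.08 (SE, unadjusted p = 0.192). Ephb6, which lacks kinase activity, was lower in every KO line (4.59 to 6.67 CPM) than in every WT line (6.68 to 10.0 CPM), by a margin in the third digit (unadjusted p = 0.0558). Ephrins were more often higher than lower, in 4 of 5 A-type and 2 of 3 B-type genes, and none passed the unadjusted threshold. Efna5 was at 33.4, 34.3 and 47.3 CPM in the WT lines and 45.8, 42.0 and 83.6 CPM in the KO lines. Efnb1, which with Ephb receptors sets tissue boundaries, was at 71.3, 64.6 and 66.2 CPM in the WT lines and at 81.9, 68.2 and 107.1 CPM in the KO lines. In both genes KO line 72 was the highest of the 6 lines and at least 1 other KO line lay within the WT range. Efnb2, the arterial ephrin, was at 97.7, 95.2 and 118.3 CPM in the WT lines and at 131.2, 110.4 and 89.6 CPM in the KO lines. Efna1, an ephrin of endothelial cells, was at 2.60, 2.46 and 2.32 CPM in the WT lines and at 2.09, 2.16 and 5.52 CPM in the KO lines, so its positive log2 fold change of 0.40 (unadjusted p = 0.359) came with lower values in KO lines 33 and 41.

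The Slits, secreted repellents that signal through Robo receptors, were lower in KO in 3 of 3 cases, with a median log2 fold change of -0.62. Slit1, at chr19:41600257-41743665 on the minus strand, passed the unadjusted threshold at a low level. It was at 2.89, 2.96 and 1.63 CPM in the WT lines and at 0.909, 1.76 and 0.493 CPM in the KO lines, from 38 to 238 counts. KO line 41 lay above WT line 78, so the groups overlapped, and the log2 fold change was -1.24 ± 0.50 (SE, unadjusted p = 0.0467, adjusted p = 0.333). The unadjusted p was over 0.05 with lane in the model (0.137), with the Y-linked term (0.391) and in 4 of the 6 fits that left out 1 line. Slit2 was at 556.6, 588.8 and 929.4 CPM in the WT lines and at 507.8, 594.6 and 245.6 CPM in the KO lines. Slit3, at chr11:35121224-35708507 on the plus strand, was at 839.2, 922.0 and 1302 CPM in the WT lines and at 696.6, 892.2 and 497.8 CPM in the KO lines. Both had their highest level in WT line 78 and their lowest in KO line 72, and neither passed the unadjusted threshold (unadjusted p = 0.133 for Slit2 and unadjusted p = 0.0724 for Slit3). Slit3 did so with lane in the model (-0.59, unadjusted p = 0.0329), but without WT line 78, its highest, it was at -0.33 (unadjusted p = 0.247). The median of the 3 Slits was -0.35 without KO line 72 and -0.34 without WT line 78. The ratio of Slit3 to Slit2 per kilobase stayed between 5.75 and 6.57 in 5 lines and was 8.50 in KO line 72.

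The 2 tested Robo receptors had positive values with overlapping lines. Robo1 was at 45.8, 35.8 and 29.3 CPM in the WT lines and at 34.3, 36.4 and 72.6 CPM in the KO lines. KO lines 33 and 41 lay inside the WT range and KO line 72 above it, in the opposite direction to Slit2 and Slit3 in that line. Robo2 was also highest in KO line 72, at 20.7 CPM against 11.1 to 17.4 in WT. Without that line both were below 0, with a median log2 fold change of -0.12.

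Netrins and their receptors likewise gave no unadjusted p under 0.05, although 4 of the 5 receptors had positive values, with a median log2 fold change of 0.36. Without KO line 72 it was 0.18, with 3 of 5 positive. Unc5b was at 455.2, 467.2 and 554.9 CPM in the WT lines and at 629.4, 475.5 and 792.3 CPM in the KO lines. KO line 41 fell within the WT range and the other KO lines above it, with a log2 fold change of 0.36 ± 0.19 (SE, unadjusted p = 0.109). Ntn4 was at 39.3, 30.1 and 19.8 CPM in the WT lines and 25.5, 38.2 and 60.5 CPM in the KO lines, with KO line 72 highest. Ntn1 went the other way in that line, at 30.5 CPM against 47.1 to 70.5 in the other 5 lines. The ratio of Unc5b to Ntn1, per kilobase, was between 7.47 and 9.84 in those 5 lines and 26.1 in KO line 72. Unc5a was at 3.06, 2.68 and 0.323 CPM in the WT lines, the widest spread within WT among genes above 1 CPM on average, and at 1.03, 1.94 and 0.778 CPM in the KO lines.

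KO line 72 thus recurred as the extreme line in family after family, and the spread of the guidance genes was counted to describe this. It was the highest line in 19 and the lowest in 23 of the 63 genes, 42 in all (66.7%, beside 51.5% of all tested genes). Levels within KO spanned more than 2-fold in 25 of 63 guidance genes (39.7%) against 19.3% of all tested genes, and within WT in 8 (12.7%) against 11.2%. At a mean level of 5 CPM or more, where counting error is small, the shares within KO were 12 of 44 (27.3%) against 8.05%. Within WT they were 1 of 44 (2.27%) against 2.37%. Without line 72 the shares within KO were 1 of 44 (2.27%) against 1.91%. A span over fewer lines can only be equal or smaller, and line 72 was left out after its values were seen. The shares without it are therefore comparable with each other, but not with those within WT or all of KO. Pairs of lines that included KO line 72 differed by more than 2-fold in 18 to 25 of the 63 genes (28.6% to 39.7%, beside 14.2% to 15.8% of all genes). All other pairs, within or across genotypes, differed in 4 to 10 (6.35% to 15.9%, beside 4.26% to 10.96%). In KO line 72 Sema3f, Sema6a, Nrp2, Epha2, Efna5, Robo1 and Ntn4 were at their highest and Sema5a, Epha4, Slit2, Slit3 and Ntn1 at their lowest. These are counts with no test, and KO line 72 is a single culture whose distance from the others was not tested.

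**Figure D4:**
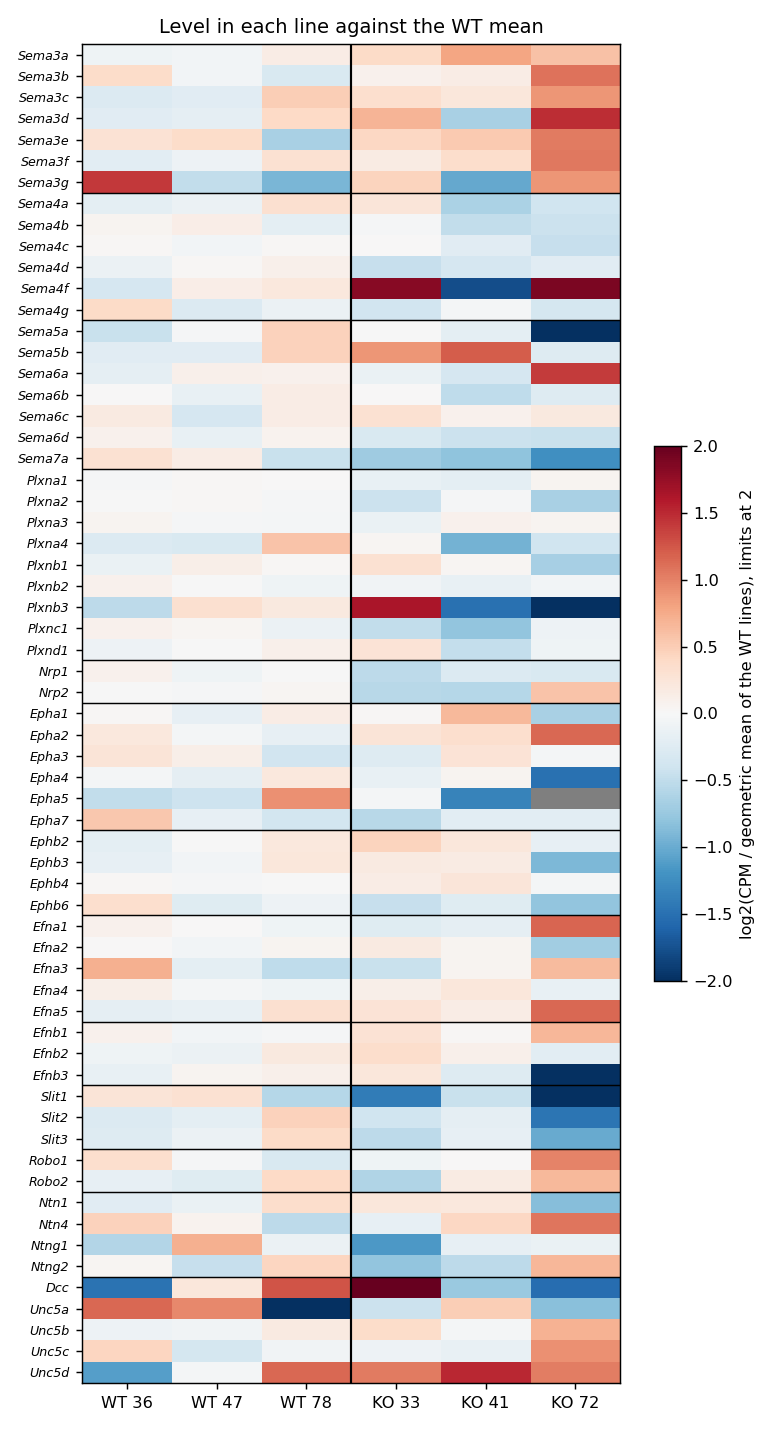
Level of each tested guidance gene in each line as log2 of its CPM over the geometric mean of the 3 WT lines (colour scale, limits at 2 in either direction; grey where no count was found), with families separated by lines. KO line 72 has the most deep colours, among them Sema6a, Nrp2 and Efna5 in red and Sema5a, Epha4 and Slit2 in blue.

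Markers of other cells were read beside these results because the cultures were unsorted. All 14 leukocyte markers were lower in KO, 9 of them with an adjusted p under 0.05 (0.528% of all genes), and 13 had no overlap between the genotypes (12.4% of all genes). An unadjusted p under 0.05 was reached by 13 of them and by 11 to 14 under the alternatives, while the count at an adjusted p was 6 without KO line 72 and 0 without any other 1 line, with lane or with the Y-linked term. Their summed level was 5374, 5778 and 5305 CPM in the WT lines and 3028, 3163 and 2547 CPM in the KO lines, with a median log2 fold change of -0.76. Csf1r, the macrophage growth factor receptor, was at 568 to 609 CPM in WT and at 331.0 to 375 CPM in KO. A list of guidance genes known in leukocytes or endothelial cells was picked by hand, is not complete, and had 10 genes in the table. Of these, 4 (Sema7a, Sema4d, Nrp1 and Plxnc1) were lower in KO with an unadjusted p under 0.05, against 8.77% of all tested genes. The other 6, Sema4a, Plxnd1, Unc5b, Ephb4, Efnb2 and Efna1, had overlapping levels, and the 10 genes were chosen with earlier results of these data known. In bulk RNA, fewer cells of a type and less RNA per cell cannot be told apart, and the part of leukocytes or endothelial cells in these differences was not tested. Of the 7 endothelial markers tested, 5 were lower in KO, and 3 of these, Flt1 among them, had no overlap (12.4% of all tested genes). The only 2 with an unadjusted p under 0.05 were Pecam1 (log2 fold change -1.63, unadjusted p = 0.00690) and Cdh5 (-0.85, unadjusted p = 0.0221). Both were under 1 CPM in every line, at 8 to 62 counts, and lower in every KO line. Kdr, Egfl7, Tek and Esam had overlapping levels, with log2 fold changes of -0.16, -0.04, 0.08 and 0.06. The summed endothelial list, which was mostly Flt1, was lowest in KO line 72 (44.6 CPM, against 139.6 to 191.7 in the other lines).

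The 8 Schwann cell markers, Sox10 among them, summed to 3.29, 14.1 and 21.8 CPM in the WT lines and to 56.0, 2.01 and 0.843 CPM in the KO lines. Plxnb3, a receptor of Sema5a that glia express, was at 0.636, 1.14 and 1.05 CPM in the WT lines and at 2.83, 0.325 and 0.182 CPM in the KO lines. Both were highest in KO line 33 and lowest in KO line 72, and the 6 lines came in nearly the same order. Of the neuronal list 5 markers were tested, each with a positive value and 1 with an unadjusted p under 0.05 (5.88% of all tested genes were higher at this threshold). Map2 was at 153.3 CPM in KO line 72 and at 12.5 to 52.0 CPM in the other lines, while Dcx was at or near 0 in every line. Epithelial markers summed to no more than 2.61 CPM in any line, and the 2 muscle markers with a row in the table to between 26.2 and 78.5 CPM. All 12 proliferation markers had higher values in KO, 8 with an unadjusted p under 0.05, against 5.88% of all tested genes. Their smallest adjusted p was 0.186, and their sums overlapped between the genotypes. Which of these cell populations the guidance genes came from was not tested.

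**Figure D5:**
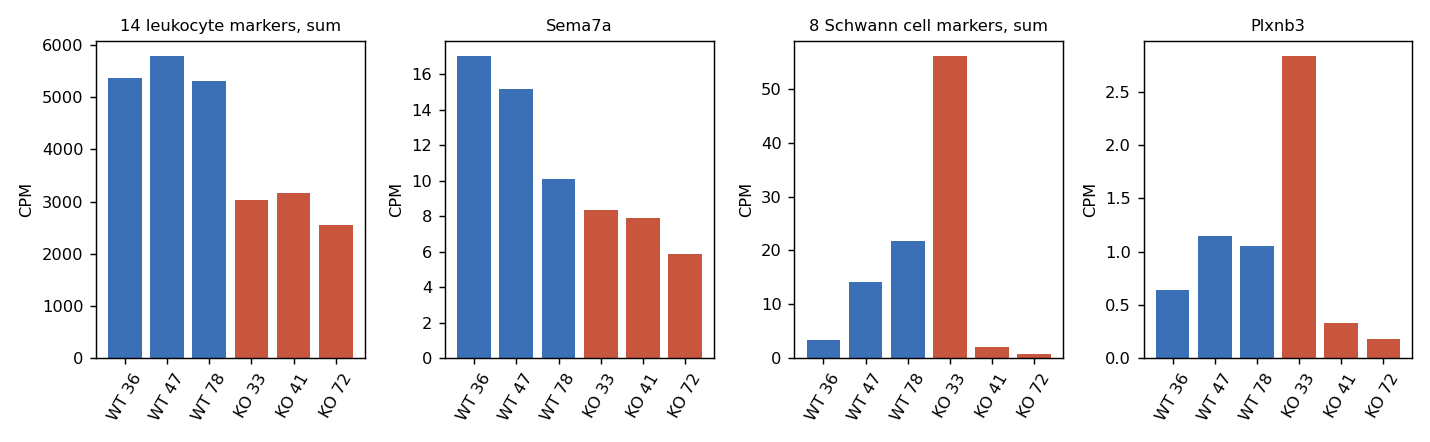
CPM in each line (blue WT, red KO) of the summed leukocyte markers, Sema7a, the summed Schwann cell markers and Plxnb3; all bars start at 0. The leukocyte sum is 5305 to 5778 in WT and 2547 to 3163 in KO, and the Schwann cell sum and Plxnb3 both peak in KO line 33, at 56.0 and 2.83 CPM.

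A list of 82 further genes of the pathway was read in the same fit, with co-receptors, adaptors, GTPase regulators and cytoskeletal effectors. Of these, 80 were tested, and none passed an adjusted p of 0.05 (edgeR, 0.528% of all genes), while 11 had an unadjusted p under 0.05 (13.8%), 9 lower and 2 higher. Over all tested genes the share was 14.6%, with 8.77% lower and 5.88% higher. DESeq2 gave 7 and voom 2 at an adjusted p under 0.05, where they called 871 and 267 of all 14773 tested genes. With the 1.5-fold threshold 4 were lower and 2 higher (4.62% and 1.5% of all genes), and the median log2 fold change was -0.02. The smallest p belonged to Elmo1, which with Dock proteins activates Rac. It was at 45.2, 52.2 and 49.9 CPM in the WT lines and at 30.4, 34.7 and 29.4 CPM in the KO lines. Every KO line was below every WT line, and the log2 fold change was -0.64 ± 0.09 (SE, adjusted p = 0.0565). Other genes with an unadjusted p under 0.05 and a negative value were Vav3, a Rac activator downstream of Eph receptors (-0.82), Fes, a kinase downstream of Plxna1 (-0.48), Dock4 (-0.41), Rasa1 (-0.41), and Srgap2, a Robo adaptor (-0.32). The list was completed by Gfra1 (-0.53), Draxin, a netrin antagonist (-0.90), and the adhesion molecule Nrcam, a partner of Nrp2 in semaphorin signalling (-1.52). Several of these, Elmo1, Vav3, Fes and Dock4, are also used by myeloid cells, whose markers were lower in the same lines, and this was not tested.

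Flrt3, a membrane ligand of Unc5 receptors and a Robo1 co-receptor, was the more abundant of the 2 that were higher in KO, the other being Ablim3 (1.46), an actin-binding protein. Flrt3 was at 8.80, 8.20 and 7.23 CPM in the WT lines and at 12.7, 13.6 and 28.4 CPM in the KO lines. The groups did not overlap, KO line 72 was highest, and the log2 fold change was 1.18 ± 0.33 (SE, unadjusted p = 0.0104, adjusted p = 0.202). The netrin and repulsive guidance receptor Neo1 was at 225.0, 199.0 and 226.3 CPM in the WT lines and at 234.1, 159.1 and 173.0 CPM in the KO lines, which overlapped (unadjusted p = 0.243).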

How the data were processed

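RNA of 6 pMEF lines, 3 HAT1 WT and 3 HAT1 KO, was sequenced by the authors, who prepared libraries with a TruSeq RNA kit. The authors deposited 1 table with raw read counts per gene, not normalized. Beside the counts the authors gave their result for KO against WT, a log2 fold change and log2 mean CPM, an F score, and a p-value and q-value for each gene as deposited, none of which were used. The submitters' processing notes name edgeR and mm10. The aligner, the counter and the use of strand were not given in the sources used here, so genes that overlap a neighbour have uncertain counts. Of the guidance genes, 7 share over 5% of their exon bases with another gene. Small counts were mostly even (75.1% of those up to 10), so a read pair may have been counted as 2 reads.

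edgeR 4.0.16 (R 4.3.3) was used to test the counts (filterByExpr, TMM scaling, glmQLFit and glmQLFTest with genotype alone, two-sided), with Benjamini-Hochberg adjustment over 14773 genes and a threshold of 0.05. The standard error is the log2 fold change divided by the square root of F. Levels are TMM-scaled CPM, and exon lengths come from GENCODE M21 (GRCm38). Promoters come from RefSeq. Depth per line, 67720628 to 98786746 counts, makes counting error small beside the spread between lines, except in genes of few counts. The study's methods name separate embryos for its chromatin accessibility cultures. They do not say so for the RNA lines, so p-values measure only the spread between these lines. For 1 gene, an exact permutation test over these 6 lines could not go below p = 0.1. The guidance genes, the other lists and the alternatives were chosen with earlier results of these data known. Named genes were those with an unadjusted p under 0.05, the highest per length in each family, and those under the filter. A hand-picked, incomplete list known in leukocytes or endothelial cells was named too. Examples such as Nrp2, Sema4f and Plxnb3 were chosen after their values were seen. Alternatives were DESeq2 1.42.0, its size factors, library size alone, no filter, a mean of at least 50 counts, voom with sample quality weights in limma 3.58.1, lane or Y-linked expression in the model, and leaving out each line.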

Additional observations from a re-analysis of the deposited data

How the results depend on the processing

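No paired analysis was possible because the genotypes share no replicate numbers. The count of guidance genes at an adjusted p under 0.05 was 0 in edgeR under both other scalings, both other filters, the lane and the Y-linked term, and in voom, and it was 5 in DESeq2. Leaving out 1 line gave 0 to 1, the 1 being Nrp2 without KO line 72. The count at an unadjusted p under 0.05, 8 in the report, was 13 in DESeq2, 13 in voom and 4 with lane in the model (6.35% against 6.3%). It ran from 5 without WT line 36 to 15 without KO line 41. Of genes higher at 1.5-fold, 2 in the report, 1 remained in number with lane in the model, and leaving out 1 line gave 0 (without WT line 36 or 47) to 4 (without WT line 78 or KO line 41). Of those lower at 1.5-fold, leaving out 1 line gave 1 (without WT line 36) to 4 (without KO line 41). The median log2 fold change ran from -0.10 to -0.005 over the fits without 1 line. Among the named genes, the sign of the log2 fold change reversed for Efna1 in voom (-0.049) and without KO line 72 (-0.20, range without 1 line -0.20 to 0.64), for Efnb2 with the Y-linked term (-0.10) and without KO line 33 (range without 1 line -0.052 to 0.23), for Plxnd1 without KO line 41 (range -0.27 to 0.11) and for Robo1 without KO line 72 (range -0.051 to 0.56). None of these had an unadjusted p under 0.05. Among examples outside the naming rule, Unc5a reversed with the Y-linked term (1.94). It was at -1.19 (unadjusted p = 0.0390) without WT line 78. Plxnb3 reversed without KO line 33 (-1.90, unadjusted p = 0.00830), and Robo2 without KO line 72 and with the Y-linked term. For Unc5a and Plxnb3 the line left out was the one furthest from its group, so these p-values are not given as support. Nrp2, below 0 with all lines, was above 0 without KO line 33 and without KO line 41. The cause was not tested. Of the values of named genes under the alternatives, 279 kept their sign and their side of the unadjusted threshold, 22 lost the threshold, 15 gained it and 6 reversed. Fits without 1 line rest on 2 lines against 3, and the fit with lane leaves WT line 36 out of the genotype estimate. Depth limits Slit1, Dcc, Epha5, Unc5a and the other genes near or below 1 CPM.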
